A study of Mus musculus with 24 samples.

Results

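Macrophages, monocytes and the other leukocytes of a tissue can be followed in bulk RNA through genes that they express and that the cells around them largely do not. Here 39 such genes, of 22609 gene symbols counted, were followed in skin of the hind paw, in dorsal root ganglia (DRG), which hold the sensory neurons, and in the lumbar spinal cord. The mice had been given an agonist antibody to LTβR, the lymphotoxin beta receptor. The 39 symbols were a fixed list, and within it genes were chosen by their count alone: a gene was kept in a tissue when at least 3 of its libraries held 10 or more counts. All 39 were kept in paw and in DRG, and 36 in spinal cord. Just inside that limit was Spn in spinal cord, with 10 to 81 counts and 6 libraries at 10 or more. Just outside it were Itgax with 2 such libraries, Slamf7 with 1 and Ms4a7 with 0, all in spinal cord, which were not tested there. The list was drawn up with the results in these libraries known, above all those in paw on day 6, so the paw values are a description of the listed genes.

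Every mouse was a male C57 mouse aged 8 to 12 weeks that received antibody into the hind paw, 10 µg per injection. The antibody was the LTβR agonist or, in the control groups, IgG. Control tissue was taken 1 day after IgG, day-1 tissue 1 day after the first agonist injection, and day-6 tissue after 2 agonist injections. The labels differ on that last interval, since sample titles run from injection 1 and the series description from the end of both, so day 6 is used as a group name. No control was taken at the later time, so that in every comparison of day 6 with control or day 1 the time and the number of injections cannot be told apart. Paw skin was a punch biopsy, and paw and DRG came from the injected side, the DRG from levels L3 to L5. Paw and DRG each had control, day-1 and day-6 groups and spinal cord had day-1 and day-6 groups, with 3 libraries per group and 24 in all. Spinal cord control libraries were not analysed here. The labels number the libraries and do not tie each to its own animal. The p-values therefore reflect spread among these libraries, which may be technical.

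LTβR is a receptor of the tumour necrosis factor receptor family on stromal, epithelial and myeloid cells, and it activates NF-κB mainly by the non-canonical route. Its ligands come mostly from lymphocytes, and the receptor is best known for building lymph nodes and keeping their stroma able to attract leukocytes. Tissue macrophages live for long periods in skin, in the DRG around sensory neurons and in the meninges, and those of the spinal cord parenchyma are microglia. Monocytes enter from blood through the receptor CCR2 and can become macrophages in the tissue. The listed genes fall into 6 roles. These are phagocyte enzymes and surface proteins, scavenger and lectin receptors of resident macrophages, and Fc receptors and signalling adaptors. The others are signalling receptors of myeloid cells, integrins and adhesion molecules, and genes of all leukocytes.

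Myeloid genes are known for promoters that lack a TATA box and carry sites for PU.1, an ETS-family factor of the myeloid lineage whose sites contain the letters GAGGAA. Of the 39 genes, 32 had a promoter in RefSeq on build GRCm38.p6, and the 250 bases before the start of transcription were searched on both strands for 10 motifs. GAGGAA, in either orientation, stood in 15 of the 32 promoters (46.9%), against 6986 of 27025 genes (25.9%). TATAAA stood in 4 of 32 (12.5%) against 14.3% of all genes. The longer GAGGAAG, which contains GAGGAA, stood in 8 of 32 (25%) against 12.0%. These are matches of letters, with no test, and binding was not measured. To show where the match lies, 1 gene of each role is printed, namely the gene with the smallest p in paw on day 6 among those with a match. Sequences run 5′ to 3′ on the strand of the gene and end at the base before the start, and capitals mark GAGGAA or, where the match is on the other strand, TTCCTC.
Ctss, chr3:95526536-95526785, forward strand: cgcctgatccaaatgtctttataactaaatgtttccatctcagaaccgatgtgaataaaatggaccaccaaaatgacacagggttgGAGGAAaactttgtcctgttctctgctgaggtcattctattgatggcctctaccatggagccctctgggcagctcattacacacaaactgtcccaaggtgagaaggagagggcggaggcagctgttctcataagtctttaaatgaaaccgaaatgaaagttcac
Mgl2, chr11:70130107-70130356, forward strand: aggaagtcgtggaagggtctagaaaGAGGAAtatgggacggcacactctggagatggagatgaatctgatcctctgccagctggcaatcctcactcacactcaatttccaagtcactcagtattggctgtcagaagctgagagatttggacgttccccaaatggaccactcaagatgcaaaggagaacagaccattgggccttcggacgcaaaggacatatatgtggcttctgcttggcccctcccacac
Fcgr3, chr1:171059404-171059653, reverse strand: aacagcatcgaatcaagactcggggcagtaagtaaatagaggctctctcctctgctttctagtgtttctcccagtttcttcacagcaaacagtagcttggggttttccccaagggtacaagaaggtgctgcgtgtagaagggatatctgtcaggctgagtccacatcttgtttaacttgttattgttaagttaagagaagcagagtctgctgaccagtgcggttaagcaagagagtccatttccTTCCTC
Cd33, chr7:43533172-43533421, reverse strand: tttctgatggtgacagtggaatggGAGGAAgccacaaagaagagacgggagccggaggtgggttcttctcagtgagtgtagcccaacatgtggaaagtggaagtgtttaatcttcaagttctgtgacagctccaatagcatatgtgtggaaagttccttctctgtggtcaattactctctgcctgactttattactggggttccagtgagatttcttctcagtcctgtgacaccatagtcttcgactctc
Itgam, chr7:128062390-128062639, forward strand: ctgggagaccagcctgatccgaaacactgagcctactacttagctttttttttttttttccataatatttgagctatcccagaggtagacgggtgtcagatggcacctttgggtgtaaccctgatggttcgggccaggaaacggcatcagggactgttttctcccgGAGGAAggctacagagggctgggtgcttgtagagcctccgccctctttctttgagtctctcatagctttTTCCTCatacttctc
Cd37, chr7:45238840-45239089, reverse strand: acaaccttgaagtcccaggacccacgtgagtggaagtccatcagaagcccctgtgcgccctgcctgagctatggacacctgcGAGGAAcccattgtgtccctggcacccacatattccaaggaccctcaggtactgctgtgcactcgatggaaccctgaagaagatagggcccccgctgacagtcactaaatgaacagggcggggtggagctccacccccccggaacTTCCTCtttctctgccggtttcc
Counted from the start, the match began at base -164 in Ctss, -225 in Mgl2, -6 in Fcgr3 and -226 in Cd33. Itgam and Cd37 each had a match on both strands, at -84 and -15 in Itgam and at -168 and -23 in Cd37. The matches thus lay anywhere from next to the start to the far end of the window.

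Depth, as reads in genes per library in units of 1e6, was 24.2 to 41.0 in paw, 21.6 to 34.2 in DRG and 15.7 to 26.3 in spinal cord. The markers of each tissue fitted its label, since the 4 keratins of skin summed to 43100 to 83900 CPM (normalised counts per 1e6 reads) in paw and to at most 131 CPM in DRG, and the 4 markers of DRG neurons to 3100 to 3840 CPM in DRG. Some libraries stood apart. In control library 1 of the DRG, 31.5% of uniquely placed reads fell outside annotated genes, against 13.1 to 13.8% in the other 8 DRG libraries. Skeletal muscle markers summed to between 141 and 16600 CPM in control paws and to 3350 to 25700 CPM in the agonist paws, and to between 20.1 and 4380 CPM in DRG. In paw, library 3 of day 6 was the lowest of its group for most listed genes, and in spinal cord, library 1 of day 6 was the highest of all 6 for 27 of 36 genes. Neutrophil markers varied within groups, as given below beside the results.

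Levels of different genes are given as CPM per kilobase of exon, on a scale set within each tissue. In control paw the highest level was that of Lyz2, which encodes lysozyme M, at 101, followed by Ctss, the lysosomal protease cathepsin S, at 38.0 and Tyrobp, the adaptor DAP12, at 29.4. The lowest paw levels were those of Cd180, a toll-like-receptor relative, at 0.382 and Slamf7 at 0.405. In control DRG the order was another, with Coro1a at 70.7, Lyz2 at 66.6 and Lcp1 at 42.1, and with Rassf4 at 17, while Ptprc, the leukocyte antigen CD45, stood at 1.75. Coro1a, Lcp1 and Rassf4, listed here as leukocyte genes, therefore stood far above CD45 in DRG, whereas in control paw they stood at 9.55, 6.64 and 2.68 beside 2.81 for Ptprc. In spinal cord on day 1 Ctss stood at 52.6, Tyrobp at 22.6, Coro1a at 19.1 and Selplg at 16.8. In bulk tissue fewer cells of a type and less RNA per cell cannot be told apart, which holds for every value here.

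**Figure D1:**
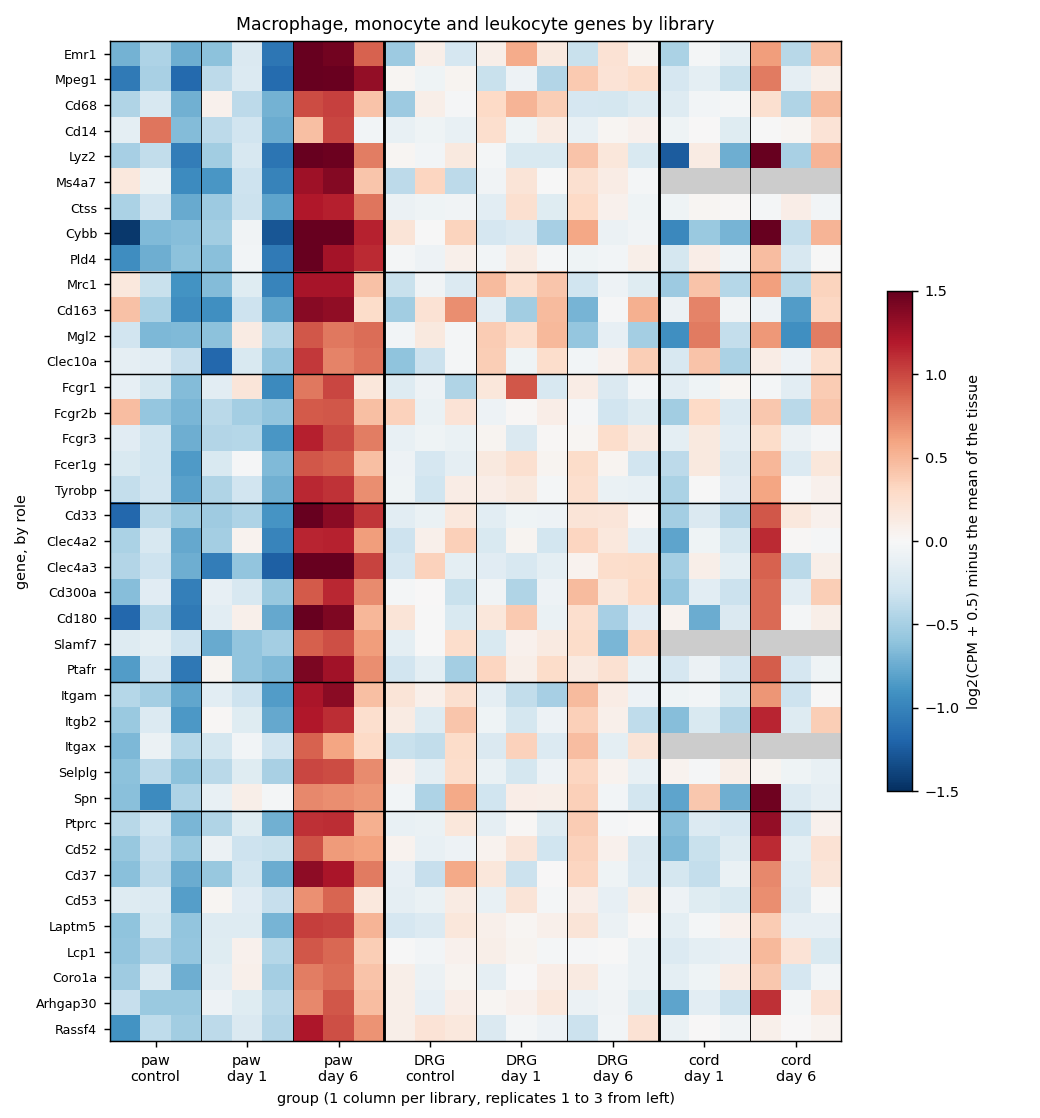
Each row is a listed gene and each column a library, and colour gives log2(CPM + 0.5) minus the mean of the tissue, with colours capped at 1.5 on the log2 scale and grey for the 3 genes not tested in spinal cord. The 3 day-6 paw columns are red for nearly all of the 39 genes, the DRG columns are pale for most genes, and in spinal cord library 1 of day 6 is the reddest column.

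In paw on day 6 the listed genes stood above control as a group. Against control, 26 of 39 were higher and 0 lower at an adjusted p under 0.05, all 39 had a positive log2 fold change, and in 36 the 3 day-6 libraries lay above the 3 controls. Over all genes tested the share called higher was 0.667%, the share with a positive change 46.7% and the share with all day-6 libraries above the controls 8.22%. The median log2 fold change was 1.46 over the listed genes and -0.01 over all 15287 genes. Since the genes were listed with this contrast known, nothing is read from that difference. Summed over the list, control libraries held 537 to 745 CPM, day-1 libraries 538 to 815 CPM and day-6 libraries 1470 to 2270 CPM.

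Among the phagocyte genes 6 of 9 rose, with a median log2 fold change of 1.91. Mpeg1, which encodes the pore-forming protein perforin-2 of macrophages, stood at 10.4, 15.8 and 9.67 CPM in control paws, 16.8, 19.2 and 9.75 CPM on day 1 and 72, 62.9 and 56.4 CPM on day 6. Every day-6 library was above every other paw library, and the fitted change was 2.42 ± 0.28 (SE, n = 3 against 3, adjusted p = 0.0147), while day 1 overlapped control. Ctss stood at 52.0, 59.7 and 42.9 CPM in control, 49.8, 58.0 and 41.8 CPM on day 1 and 168, 164 and 127 CPM on day 6. Its day-1 values lay almost on the control values, and its day-6 change was 1.57 ± 0.17 (adjusted p = 0.0147). Pld4, an endolysosomal exonuclease, stood at 6.16, 7.20 and 7.82 CPM in control, 7.78, 11.9 and 5.62 CPM on day 1 and 38.9, 29.9 and 27.3 CPM on day 6, a change of 2.18 ± 0.27 (adjusted p = 0.0147). Emr1, the gene of the macrophage antigen F4/80, stood at 9.30, 11.2 and 9.16 CPM in control, 10.0, 13.3 and 7.08 CPM on day 1 and 44.8, 43.3 and 29.1 CPM on day 6, a change of 1.98 ± 0.25 (adjusted p = 0.0164). In Pld4 and Emr1, too, the day-6 libraries lay apart and the other groups overlapped. The remaining calls were Cybb, the catalytic subunit of the phagocyte NADPH oxidase, with the largest fold of the list at 2.50 ± 0.37 (adjusted p = 0.0314), and Lyz2 at 1.91 (adjusted p = 0.0314). Cd68, a lysosomal glycoprotein of macrophages, had 1.32 (adjusted p = 0.0534) and Ms4a7 1.45 (adjusted p = 0.201), neither past the threshold. Cd14, the co-receptor for lipopolysaccharide, had the smallest change of the 39, 0.42 ± 0.39 (adjusted p = 0.842), with control values of 12.8, 25 and 8.84 CPM that overlapped day 6 at 19.6, 28.9 and 13.8 CPM.

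Of the 4 scavenger and lectin receptors, 1 rose. It was Mgl2, a galactose-type lectin (CD301b) of dermal macrophages and dendritic cells, at 6.97, 5.22 and 5.27 CPM in control, 5.45, 9.46 and 6.31 CPM on day 1 and 16.9, 15.3 and 15.9 CPM on day 6. Its 3 day-6 values lay close together and apart from the rest, with a change of 1.46 ± 0.22 (adjusted p = 0.0279). Mrc1, the mannose receptor CD206, stood at 95.2, 67.0 and 45.3 CPM in control and 200, 200 and 115 CPM on day 6, and Cd163, the haemoglobin scavenger receptor, at 62.1, 32.9 and 23.8 CPM in control and 119, 116 and 55.5 CPM on day 6. For Mrc1 the groups did not overlap and for Cd163 they did, and neither passed the threshold (1.31 ± 0.34, adjusted p = 0.178, and 1.29 ± 0.42, adjusted p = 0.319). Clec10a, the neighbour and close relative of Mgl2, had 1.14 (adjusted p = 0.0794).

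Fc receptors bind antibody on phagocytes, and activating ones signal through an immunoreceptor tyrosine-based activation motif. The role holds Fc receptors and adaptors with that motif. Of these 5 genes 2 rose. Tyrobp stood at 18, 18.9 and 12.9 CPM in control, 16.8, 18.9 and 13.8 CPM on day 1 and 51.2, 49.5 and 37.7 CPM on day 6, a change of 1.48 ± 0.19 (adjusted p = 0.0170), with day 1 on top of control. Fcgr3, a low-affinity activating IgG receptor, had 1.39 ± 0.19 (adjusted p = 0.0209). Fcer1g, the shared signalling chain, had 1.23 (adjusted p = 0.0576), Fcgr1, the high-affinity IgG receptor, 1.15 (adjusted p = 0.286) and Fcgr2b, the inhibitory IgG receptor, 0.97 (adjusted p = 0.266, groups overlapping).

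Signalling receptors of myeloid cells held the highest median of the roles, 2.10, with 6 of 7 called. Cd33, a sialic-acid-binding lectin, stood at 3.26, 5.96 and 5.30 CPM in control, 5.42, 5.70 and 4.13 CPM on day 1 and 25.2, 21.4 and 17.4 CPM on day 6. The lowest day-6 library was well above the highest of the other 6, and the change was 2.14 ± 0.25 (adjusted p = 0.0147). Clec4a3, a C-type lectin, had 2.15 ± 0.28 (adjusted p = 0.0170), Cd180 2.36 ± 0.41 (adjusted p = 0.0447), Ptafr, the receptor for platelet-activating factor, 2.10 (adjusted p = 0.0421), the inhibitory receptor Cd300a 1.65 (adjusted p = 0.0391) and Slamf7 1.24 (adjusted p = 0.0340). Clec4a2, an inhibitory C-type lectin and near relative of Clec4a3, had 1.59 (adjusted p = 0.0645).

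Among the integrins and adhesion molecules 3 of 5 rose. Selplg, the selectin ligand PSGL-1 with which leukocytes roll on vessel walls, had the smallest p of the list. It stood at 7.73, 9.17 and 7.78 CPM in control, 9.07, 10.7 and 8.53 CPM on day 1 and 24.8, 24.4 and 20.2 CPM on day 6, a change of 1.49 ± 0.14 (adjusted p = 0.0147). Spn, the sialoglycoprotein CD43, stood at 2.62, 2.01 and 2.99 CPM in control, 3.96, 4.63 and 4.21 CPM on day 1 and 7.44, 7.31 and 7.15 CPM on day 6, a change of 1.52 ± 0.18 (adjusted p = 0.0147). In Spn the 3 groups formed separate steps, control lowest and day 6 highest, and the same was so for Cd52 and Lcp1. The day-1 step passed the edgeR test in none of the 3, and DESeq2 called that of Spn. Itgam, the CD11b chain of the integrin Mac-1, rose by 1.65 ± 0.26 (adjusted p = 0.0334). Its partner chain Itgb2 (1.46) and the CD11c chain Itgax (1.09) did not pass (adjusted p = 0.0838 for both).

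Of the 9 genes of all leukocytes 8 rose, with a median of 1.30. Cd37, a tetraspanin, stood at 2.74, 3.29 and 2.48 CPM in control, 2.86, 3.62 and 2.49 CPM on day 1 and 12.2, 11.2 and 8.08 CPM on day 6, the largest change of the role at 1.89 ± 0.22 (adjusted p = 0.0147). Rassf4, a Ras-association-domain protein, stood at 14.3, 20.7 and 18.7 CPM in control, 20.5, 23.3 and 19.9 CPM on day 1 and 63.6, 53.3 and 43.6 CPM on day 6 (1.58 ± 0.17, adjusted p = 0.0147). Both genes had a day-6 group that stood clear of the other 6 libraries. Cd52, a small surface glycoprotein, stood at 5.76, 6.79 and 5.82 CPM in control, 8.26, 7.01 and 6.85 CPM on day 1 and 17.5, 13.9 and 13.6 CPM on day 6 (1.30 ± 0.15, adjusted p = 0.0147). Arhgap30, a regulator of small GTPases, stood at 14.3, 12.3 and 12.3 CPM in control, 17.3, 16 and 13.7 CPM on day 1 and 30.4, 35.4 and 25.3 CPM on day 6 (1.23 ± 0.15, adjusted p = 0.0147). Ptprc rose by 1.42 ± 0.20 (adjusted p = 0.0255), as did the lysosomal membrane protein Laptm5 (1.37), the actin bundler Lcp1 (1.29) and the actin regulator Coro1a (1.18), with adjusted p between 0.0202 and 0.0404. The tetraspanin Cd53 had 1.00 (adjusted p = 0.115).

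**Figure D2:**
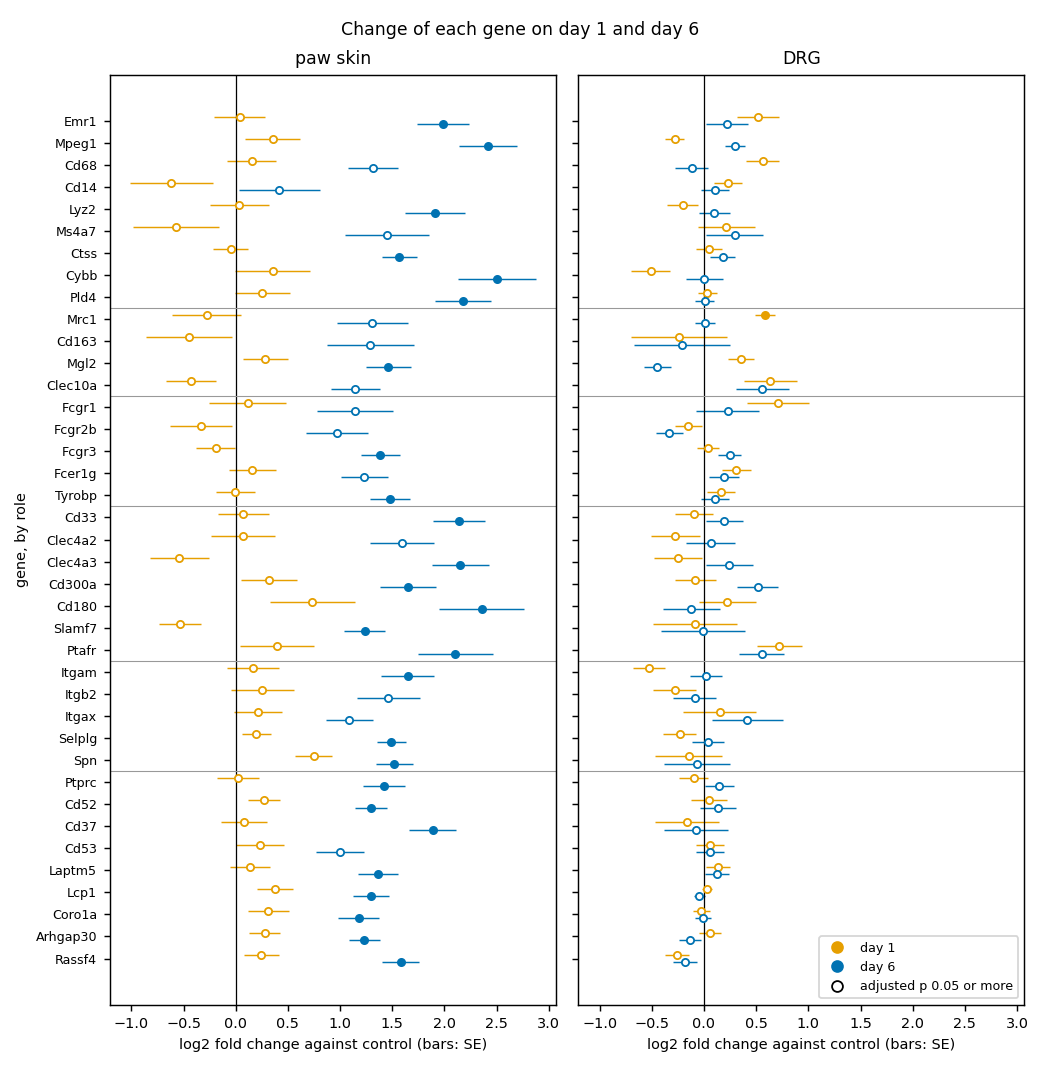
Points give the log2 fold change of each listed gene against control on day 1 (orange) and day 6 (blue) in paw skin and DRG, with bars for the SE, and filled points have an adjusted p under 0.05. In paw all 39 day-6 points lie right of 0, 26 of them filled, and in DRG the only filled point is Mrc1 on day 1.

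The direction in paw on day 6 was steadier than the calls. All 39 changes stayed positive in each of the 12 other fits, with medians from 1.32 to 1.58. The number called was 0 in a fit of control and day 6 alone, with a smallest adjusted p of 0.0605, and 36 with DESeq2. Dropping 1 of control libraries 2 and 3 or of day-6 libraries 1 and 2 also gave 0, with smallest adjusted p from 0.0581 to 0.0709. Leaving out control library 1 gave 16, and leaving out day-6 library 3, the lowest of its group, gave 29. Markers of other leukocytes were set beside these values. The 7 neutrophil markers found in the files summed to 46.5 to 401 CPM in control and 15.8 to 143 CPM on day 6, with none called. The 8 T cell markers, 5 of them tested and none called against control, summed to 4.44 to 7.11 CPM in control. On day 6 they summed to 9.64 to 10.8 CPM, without overlap. Singly, Cd4, Lck and Cd2 lay above control without overlap, while Cd5, Cd3d, Cd3e, Cd3g and Cd8a overlapped control. Cd5 was the largest part of the sum, and Cd3d stood at 0.201, 0.164 and 0.0786 CPM in control and 0.143, 0.137 and 0.124 CPM on day 6. The 8 dendritic cell markers, 6 of them tested and none called, summed to 13.2 to 15.9 CPM in control and 18.1 to 20.6 CPM on day 1. On day 6 they summed to 22.4 to 29 CPM, with no overlap between any 2 groups. Cd207 was the largest part of that sum, and Zbtb46 on day 6, at 5.26, 4.37 and 3.6 CPM, overlapped both other groups. The 4 natural killer cell markers, 1 of them tested and not called, summed to 0.617 to 0.805 CPM in control. On day 6 they summed to 1.23 to 1.68 CPM, also without overlap, and most of this was Klrd1. These sums thus follow single genes and are not read as counts of cells. The part of these cells in the values of the listed genes, among them Itgax, Mgl2 and Clec10a, which dendritic cells also express, was not tested. With a skeletal muscle score as a covariate 28 listed genes were called.

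On day 1 in paw edgeR called 0 of the 39 genes, as against 1 of 15287 genes (0.00654%), and DESeq2 called 1, Spn. At an unadjusted p under 0.05 (10.6% of all genes) there were 1 higher gene, Spn at 0.75 ± 0.18 (adjusted p = 0.357), and 1 lower, Slamf7 at -0.53 ± 0.20 (adjusted p = 0.428). The 3 values of Slamf7 were 1.89, 1.97 and 1.69 CPM in control and 1.12, 1.31 and 1.42 CPM on day 1, all lower. The groups did not overlap in 3 higher genes, Spn, Cd52 and Lcp1, and in 1 lower gene, Slamf7, against 6.4% and 8.6% of all genes. Positive changes numbered 28 (50.8% of all genes) and negative ones 11, with a median of 0.15, and the macrophage antigens Emr1 (0.04), Ctss (-0.05) and Lyz2 (0.03) lay near 0. All 9 genes of all leukocytes had small positive values, from 0.02 to 0.38, as had all 5 integrins and adhesion molecules, with a median of 0.21, and 3 of the 4 scavenger and lectin receptors had negative ones, with Cd163 at -0.45 and Clec10a at -0.43.

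Between day 1 and day 6, both in agonist-treated paws, 22 of 39 genes were higher (0.949% of all genes) and 0 lower, with a median of 1.48. All 39 changes were positive (48.6% of all genes), and in 38 the groups did not overlap (12.7% of all genes), the exception being Fcgr1. Clec4a3 had the largest change, from 1.6, 2.35 and 1.34 CPM to 12.5, 13.6 and 8.2 CPM (2.69 ± 0.28, adjusted p = 0.0202). Slamf7, whose day-1 libraries all lay below control, rose by 1.77 ± 0.20 (adjusted p = 0.0202). Clec10a went from 3.65, 7.48 and 5.78 CPM to 19.1, 15.2 and 16 CPM and passed in this comparison (1.58 ± 0.24, adjusted p = 0.0290). This comparison shares its day-6 libraries with the one against control. The call count was 0 without day-1 library 1 or 3 or day-6 library 1 or 2, 15 without day-1 library 2, and 37 with DESeq2, while the medians stayed between 1.29 and 1.61.

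**Figure D3:**
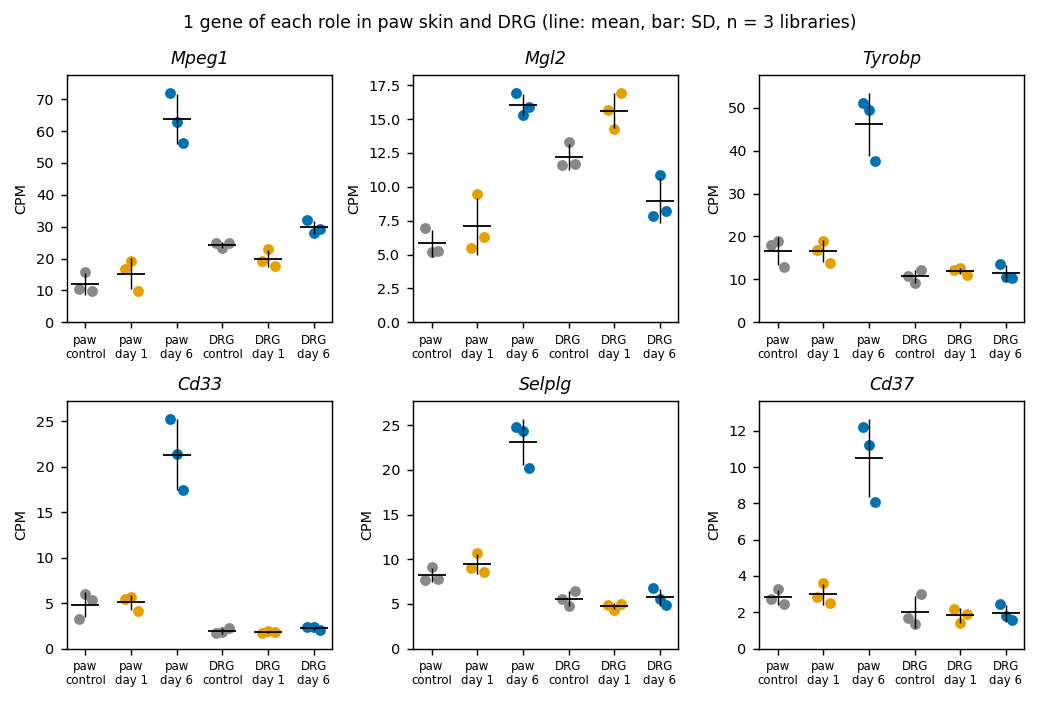
CPM of 1 gene per role in each of the 9 paw and 9 DRG libraries, with the group mean as a line and the SD as a bar. In paw the day-6 points stand above both other groups for all 6 genes, and in DRG Mgl2 is highest and Mpeg1 lowest on day 1.

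In DRG 1 of the listed genes, Mrc1 on day 1, passed the test. Summed over the list, libraries held 759 to 823 CPM in control, 760 to 779 CPM on day 1 and 752 to 819 CPM on day 6. Most of this came from the 9 genes of all leukocytes, at 454 to 500 CPM over the 9 libraries. Of these, Lcp1 held 164 to 187 CPM, Coro1a 122 to 147 CPM and Rassf4 81.6 to 119 CPM, against 7.82 to 11.9 CPM for Ptprc. The level sum thus mostly follows Lcp1, Coro1a and Rassf4, and the part of leukocytes in their DRG values was not tested. The 9 phagocyte genes summed to 172 to 186 CPM in control, 155 to 175 CPM on day 1 and 168 to 219 CPM on day 6. The 4 scavenger and lectin receptors summed to 37.1 to 49.9 CPM in control, 49.5 to 63.4 CPM on day 1 and 33.6 to 45.5 CPM on day 6, so that day 1 lay above day 6 without overlap and above control but for a narrow overlap. On day 1, 21 changes were positive (49.6% of all genes) and 18 negative with a median of 0.03, and 1 gene was called higher (0.162% of all genes) and 0 lower. That gene was Mrc1, at 17.4, 21.3 and 19.2 CPM in control, 31.0, 26.5 and 29.6 CPM on day 1 and 17.9, 20.9 and 19.5 CPM on day 6. Day 1 stood apart from both other groups, which lay on top of each other, and the change was 0.59 ± 0.09 (adjusted p = 0.0454). The call was lost in each of the 6 fits that left out a library (adjusted p 0.0574 to 0.169), among them the fit without control library 1 (0.51, adjusted p = 0.152), and in the fit of the compared groups alone (adjusted p = 0.108). The size stayed between 0.51 and 0.66, and DESeq2 gave an adjusted p of 3.62e-05.

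On day 1 the DRG groups did not overlap in 7 listed genes that were higher, Mrc1 among them, and 4 that were lower, against 7.55% and 5.65% of all genes. Apart from Mrc1 none of these passed the test. Cd68 had 4.46, 7.21 and 6.63 CPM in control and 8.44, 9.82 and 8.88 CPM on day 1 (0.56 ± 0.16, adjusted p = 0.329), and Emr1 had 0.51 and Mgl2 0.36. On the other side Itgam went from 9.49, 8.70 and 9.78 CPM to 7.46, 6.26 and 5.68 CPM (-0.53 ± 0.15, adjusted p = 0.352), and Cybb had -0.51 and Mpeg1 -0.28. Genes of macrophages thus stood on both sides on the same day.

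On day 6 the DRG differed from control in 0 of the 39 genes and in 0 of 15461 genes with edgeR, against 557 genes (3.6%) at an unadjusted p under 0.05, and DESeq2 called 0 of the 39. At an unadjusted p under 0.05 there were 4 listed genes above and 2 below control, all with adjusted p of 0.995. The smallest p belonged to Mgl2 (-0.45 ± 0.13), with all day-6 libraries below control, and the next to Mpeg1 (0.30 ± 0.09), with all above. The 9 genes of all leukocytes, of which 8 rose in paw, lay between -0.19 and 0.15. Among them were Lcp1, Coro1a and Rassf4, whose DRG levels were far above that of Ptprc.

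From day 1 to day 6 the sharpest DRG values sat just outside the threshold, with 0 of 39 called and 16 of all genes (0.103%). Mgl2 went from 15.7, 14.3 and 16.9 CPM to 7.81, 10.9 and 8.25 CPM (-0.80 ± 0.13, adjusted p = 0.0513). Mrc1 was back among the control values (-0.58 ± 0.09, adjusted p = 0.0530). Mpeg1 went the other way, from 19.2, 23.0 and 17.8 CPM to 32.0, 28.1 and 29.4 CPM (0.58 ± 0.09, adjusted p = 0.0530). In all 3 the groups did not overlap, among 6 genes with day 6 wholly higher and 4 wholly lower (6.01% and 6.47% of all genes). Without the filter on low counts these 3 genes passed, and DESeq2 called them and Cd68, which had -0.68 (edgeR adjusted p = 0.235). The ratio of Mpeg1 to Mrc1 in a library was 1.09 to 1.42 in control, 0.601 to 0.867 on day 1 and 1.35 to 1.79 on day 6. It restates the opposite changes of Mpeg1 and Mrc1 in the same libraries and is no further result. Cd68, also a phagocyte gene, moved as Mrc1 did and not as Mpeg1 did. Neutrophil markers moved in the same libraries, summing to 119 to 239 CPM in control, 49.0 to 121 CPM on day 1 and 118 to 345 CPM on day 6 with 7 of 7 lower on day 1, none of them called, and their part in the values of Itgam and Cybb was not tested.

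The difference between the tissues was tested as an interaction over the 18 paw and DRG libraries. The labels do not say whether paw and DRG came from the same mice. The fit treated all 18 libraries as independent, and its p-values hold only under that reading. On day 6, 22 of 39 genes rose more in paw than in DRG (0.480% of 16461 genes), all 39 differences were positive (48.9% of all genes) and their median was 1.38. The paw change on day 6 is part of this contrast and was known when the genes were listed. Nothing is therefore read from these counts beside the shares of all genes. Rassf4 (1.76 ± 0.22), Arhgap30 (1.36 ± 0.18) and Pld4 (2.17 ± 0.28) had the smallest p, each with an adjusted p of 0.00526. Mgl2 differed by 1.90 ± 0.26 (adjusted p = 0.00579), positive against control in paw and negative in DRG. By role the calls were 6 of 9 phagocyte genes, 1 of 4 scavenger and lectin receptors, 2 of 5 Fc receptors and adaptors, 3 of 7 signalling receptors, 2 of 5 integrins and adhesion molecules and 8 of 9 genes of all leukocytes. Leaving out a library gave 8 to 25 calls, 8 of them without DRG control library 3 or DRG day-6 library 2. The genes called in all 12 of those fits were Arhgap30, Cd33, Lcp1, Mgl2, Mpeg1, Pld4, Rassf4 and Selplg. Of the called genes Rassf4, Lcp1 and Coro1a stood far above Ptprc in DRG, as given above. The part of leukocytes in their DRG values was not tested, so their differences are not read as ones of leukocytes. With skeletal muscle as a covariate 12 were called. On day 1 the interaction called 0 of the 39 and 0% of all genes (1594 genes, 9.68%, at an unadjusted p under 0.05, 5 of them listed genes), with DESeq2 also at 0 of the 39, and Mrc1, called in DRG, had a paw-minus-DRG difference of -0.87 ± 0.36 (adjusted p = 0.467).

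Markers of resident macrophages and of recruited monocytes, 11 genes each, were set side by side. They overlap the listed genes in Mrc1, Cd163, Mgl2 and Clec10a on the resident side and Itgam on the recruited side. In paw on day 6, 2 of 11 resident markers were called higher against control (0.667% of all genes), Folr2 and Mgl2. All 11 were positive (46.7% of all genes), with a median of 1.14. Folr2, a folate receptor of perivascular macrophages, had 1.68 ± 0.28 (adjusted p = 0.0406), and F13a1, which encodes a coagulation factor chain, 1.39 (adjusted p = 0.0582). Of the 11 recruited markers 2 were called higher, Ccr2 and Itgam, with 10 positive and a median of 1.06. Ccr2 stood at 17.8, 16.4 and 8.84 CPM in control, 12.4, 16.2 and 8.95 CPM on day 1 and 96.6, 80.5 and 62.7 CPM on day 6, a change of 2.48 ± 0.31 (adjusted p = 0.0179). Of the classical markers of blood monocytes Ly6c2 had a change of 0.72 (adjusted p = 0.881) and Plac8 one of 0.12, neither of them called, and Hp was below control in all libraries (-1.49, adjusted p = 0.345). From day 1 to day 6 the calls were 5 of 11 resident markers (Folr2, F13a1, Mgl2, Clec10a and Maf) and 2 of 11 recruited ones. Of all genes 1.03% were called in that comparison, in either direction. Maf stood at 197, 147 and 144 CPM in control and 90.2, 106 and 94.9 CPM on day 1. Its day-6 values of 200, 166 and 177 CPM overlapped control, so its call rests on low day-1 values. The lists were chosen with earlier results of these data known, so nothing is read from these counts beside the shares.

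Within a paw library the ratio of Ccr2 to Mrc1 was 0.187 to 0.245 in control, 0.211 to 0.228 on day 1 and 0.402 to 0.546 on day 6. The day-6 range lay above both others, so Ccr2 stood higher relative to Mrc1 there. Ccr2 was a called recruited marker and Mrc1 an uncalled resident one. Over the whole lists the median change of the recruited markers was slightly below that of the resident markers. The ratio therefore describes these genes and not the lists. Paw also called genes listed as microglial, which macrophages and dendritic cells outside the nervous system can express. These were Cx3cr1 (2.28, adjusted p = 0.0406), P2ry12 (1.46, adjusted p = 0.0447) and Gpr34 (1.56, adjusted p = 0.0452), while Sall1 had 0.00 and Tmem119 0.38.

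In DRG the resident markers leaned one way on day 1 and the other way from day 1 to day 6. On day 1, 10 of 11 were positive (49.6% of all genes) with a median of 0.36 and 6 had day-1 libraries above all controls (7.55% of all genes), Mrc1 being the only one called. From day 1 to day 6, 10 of 11 were negative, with 48.5% of all genes positive, the median was -0.54 and 7 had day-6 libraries below all those of day 1 (6.47% of all genes), with 0 called. Folr2 had 0.80 and then -1.24, and Cbr2, a carbonyl reductase, 0.58 and then -1.23 (adjusted p 0.119 to 0.590). The recruited markers, 10 of them tested, had medians of -0.58 and then 0.52, with 0 called either time. Both comparisons share the 3 day-1 libraries and are not independent of each other. Pecam1, listed as an endothelial marker, was also called higher on day 1 (0.52, adjusted p = 0.0173). The 5 endothelial markers summed to 116 to 121 CPM in control, 124 to 165 CPM on day 1 and 116 to 126 CPM on day 6. Singly, Cdh5, Kdr, Tek and Emcn overlapped control on day 1. Tek leaned lower, at 12.7, 14.5 and 11.6 CPM in control and 14.5, 11 and 9.83 CPM on day 1. The 6 meningeal markers summed to 1580 to 2480 CPM in control, 2150 to 2440 CPM on day 1 and 1710 to 1860 CPM on day 6, with no overlap between day 1 and day 6 and 0 called in either comparison. The part of endothelial and meningeal cells in the values of the resident markers was not tested.

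**Figure D4:**
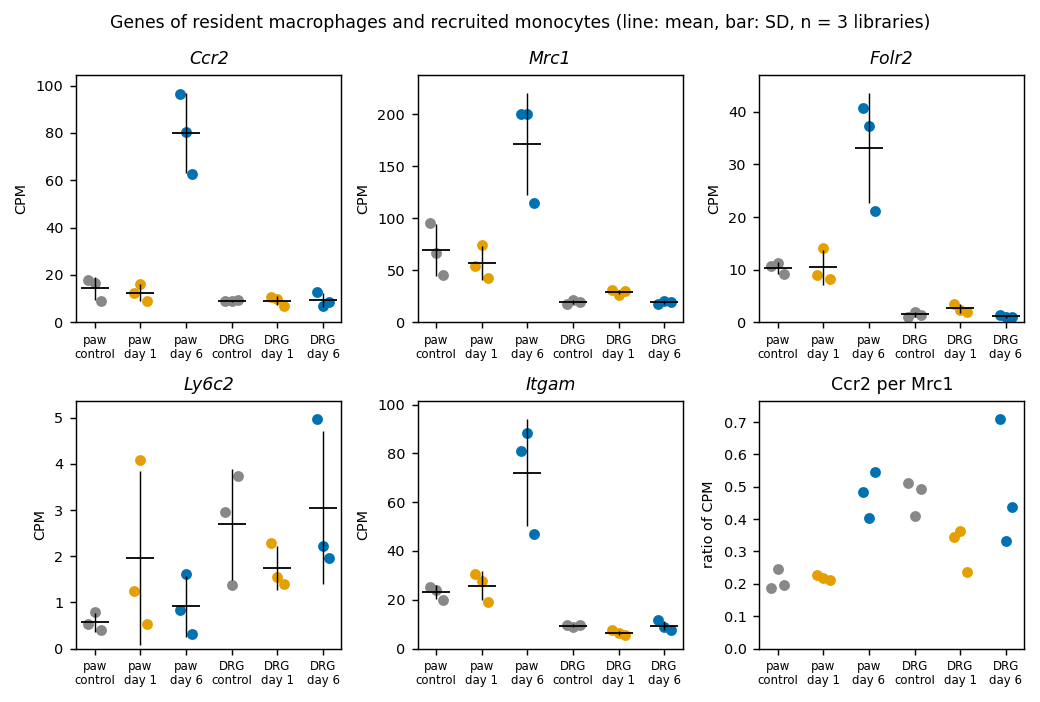
CPM of Ccr2, Mrc1, Folr2, Ly6c2 and Itgam in each paw and DRG library, with the group mean as a line and the SD as a bar, and the ratio of Ccr2 to Mrc1 in each library. Ccr2, Folr2 and Itgam stand apart on day 6 in paw, Ly6c2 does not, and the paw ratio on day 6, 0.402 to 0.546, lies above the other paw groups.

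In spinal cord, 36 genes were tested between day 6 and day 1 and 0 were called, as were 0 of 15096 genes, against 1464 genes (9.7%) and 8 listed genes at an unadjusted p under 0.05. DESeq2 called 1 listed gene, Cybb. Of the 36 changes 34 were positive (52.3% of all genes) with a median of 0.40, and in 9 genes all day-6 libraries lay above day 1 (8.17% of all genes). The smallest p was that of Cd33, at 1.45, 1.88 and 1.54 CPM on day 1 and 4.78, 2.59 and 2.40 CPM on day 6 (1.01 ± 0.30, adjusted p = 0.463). Cybb had the largest fold, from 1.68, 2.41 and 2.12 CPM to 17.4, 2.84 and 5.56 CPM (2.06 ± 0.71, adjusted p = 0.491). In both genes library 1 of day 6 was far above its replicates. Ctss, which microglia express strongly, was level at 68.4, 73.0 and 72.9 CPM on day 1 and 70.3, 76.7 and 69.5 CPM on day 6 (0.02 ± 0.06, adjusted p = 0.942). The 8 microglial markers also had a median near 0, at 0.03. Of the recruited monocyte markers 8 were tested, all with positive changes, a median of 2.89 and 0 called, and of the resident markers 10 were tested, 7 positive, with a median of 0.15 and 0 called.

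The spinal cord values rested in large part on library 1 of day 6. Without it 0 genes were called, 29 changes were positive and 7 negative, the median was 0.17, and Cybb went from 2.06 to 1.00, Lyz2 from 1.45 to 0.61 and Ptprc from 0.97 to 0.27. In that library the neutrophil markers summed to 420 CPM, against 84.4 and 114 CPM in its replicates and 33.6 to 54.3 CPM on day 1. The recruited monocyte markers summed to 106 CPM there, against 28.3 and 43.1 CPM in its replicates and 22.1 to 24.1 CPM on day 1. The B cell markers summed to 13.3 CPM there, against at most 2.4 CPM in the other spinal cord libraries. Their part in the listed genes was not tested. Without library 2 of day 6, 5 genes passed, namely Cd300a, Cd33, Cd52, Emr1 and Itgb2, with changes of 0.80 to 1.39 and adjusted p of 0.0369 to 0.0486. With a meningeal score as a covariate the median was 0.15, with 25 positive and 9 negative changes and 0 called.

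**Figure D5:**
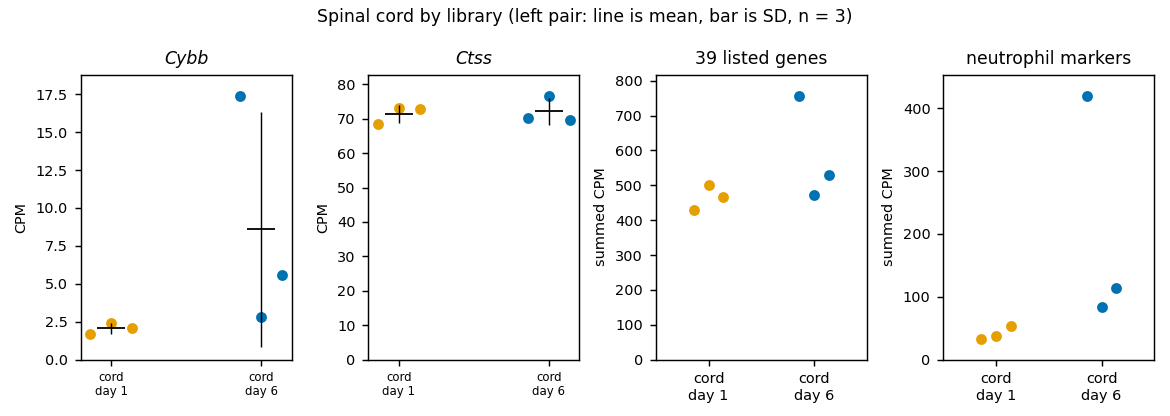
Spinal cord libraries of day 1 and day 6, with CPM of Cybb and Ctss (line, mean and bar, SD) and the CPM summed over the 39 listed genes and over the neutrophil markers. Library 1 of day 6, the leftmost blue point, is highest for Cybb, for the listed genes and for the neutrophil markers at 420 CPM, while Ctss is level.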

How the data were processed

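Raw counts of reads per gene symbol were deposited by the authors, 1 file per library and not normalised. Per the submitters' processing notes the tools were bcl2fastq, TopHat2 and HTSeq on build mm9, with no version, annotation or strand option stated in the sources at hand. Per the labels' protocols, about 500 ng of total RNA went into a stranded mRNA kit, read as 50 bp single ends. The 5 HTSeq summary lines (41.7 to 64.9% of a file) were removed. By default HTSeq drops reads that map in more than 1 place, so genes with near relatives (Lyz2, Mgl2 and Clec10a, Clec4a2 and Clec4a3, the Fc receptors) are less certain. The 24 pairs of replicates held 0 identical pairs.

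Counts were tested per tissue with the edgeR 4.0.16 quasi-likelihood F test (R 4.3.3, limma 3.58.1) with TMM factors, filterByExpr, robust dispersions and all groups of the tissue in the fit. The paw and DRG difference was an interaction contrast over 18 libraries. Adjusted p are Benjamini-Hochberg over all genes tested, 2-sided, with a threshold of 0.05. With 3 against 3 an exact permutation test cannot go below 0.1, so none was used. CPM use TMM factors within a tissue, errors of CPM are SD and of log2 fold changes SE. Counting error is part of the fit. Exon lengths came from GENCODE vM21 and promoters from RefSeq on GRCm38.p6, and no coordinates of the authors' build were used. The pipeline was checked on simulated counts. Alternatives were RLE, no filter, DESeq2 1.42.0, muscle or meningeal scores as covariates, a block for the replicate number, a fit of the compared groups alone and leaving out single libraries.

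The listed genes, roles and marker lists were chosen with earlier results of these data known. Values in every library are given for up to 12 called genes per comparison, by smallest p, and at least 1 gene of each role, with the other genes summarised. Cd14, Slamf7, Mrc1, Cd163 and Clec10a in paw, Cd68, Itgam and Pecam1 in DRG and Ctss and Cybb in spinal cord were picked for fuller description after their values were seen.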

Additional observations from a re-analysis of the deposited data

Results flagged for a closer look

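For 22 listed genes the change from control to day 6 differed between paw and DRG by the interaction test over 18 libraries, which is what set them apart here. The paw values of day 6 enter that test and were known when the list was drawn up, so these differences describe the listed genes. In each of the 22 genes the paw change was the larger, and the values are paw-minus-DRG differences in log2 fold change. Phagocyte genes were Cybb (2.49), Pld4 (2.17), Mpeg1 (2.11), Lyz2 (1.80), Emr1 (1.76) and Ctss (1.38). The lectin was Mgl2 (1.90), the adaptor was Tyrobp (1.36) and the Fc receptor was Fcgr3 (1.14). Signalling receptors were Cd180 (2.47), Cd33 (1.94) and Clec4a3 (1.91), and the adhesion molecules were Itgam (1.62) and Selplg (1.45). Genes of all leukocytes were Cd37 (1.96), Rassf4 (1.76), Arhgap30 (1.36), Lcp1 (1.33), Ptprc (1.27), Laptm5 (1.23), Coro1a (1.18) and Cd52 (1.15). Adjusted p ranged from 0.00526 to 0.0476. Cd68, at 1.43 with an adjusted p of 0.0536, lay just outside. The DRG levels of Rassf4, Lcp1 and Coro1a were far above that of Ptprc, and the part of leukocytes in them was not tested.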

How the results depend on the processing

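No listed gene past the threshold changed direction under any alternative run. In paw on day 1, DESeq2 called 1 gene against 0. For paw day 6 against control the count was 26, and 0 with only the groups compared, where the fit has fewer libraries, and leaving out a library gave 0 to 29. For paw day 6 against day 1 it was 22, 37 with DESeq2 and 0 to 22 leaving out a library. For DRG day 1 it was 1, 0 with the block, 0 with only the groups compared and 0 to 0 leaving out a library. For DRG day 6 against day 1 it was 0, 3 without the filter, 4 with DESeq2, 1 with only the groups compared and 0 to 1 leaving out a library (Mpeg1 without day-1 library 2, or Mgl2 without day-6 library 2). For spinal cord it was 0, 1 with DESeq2 and 0 to 5 leaving out a library. The interaction on day 6 called 22, 12 with the muscle covariate and 8 to 25 leaving out a library, and there Cd14 had a negative difference without paw day-6 library 2. For DRG day 6 against control and the interaction on day 1 every alternative gave 0. The cause of these moves was not tested.

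Between groups of a tissue, deviations of same-numbered libraries correlated at a median of -0.20 in paw (-0.64 to 0.32), -0.10 in DRG (-0.69 to 0.24) and -0.43 in spinal cord (-0.60 to -0.18). These values showed no pairing by number, but with so few libraries per group they cannot exclude it. Same-numbered paw and DRG libraries were not compared with each other. With the number as a replicate block the calls were 29 for paw day 6 against control (23 shared with the fit without it), 27 for paw day 6 against day 1 (19 shared), 0 for DRG day 1 (Mrc1 adjusted p = 0.0605), 0 in spinal cord and 22 for the interaction on day 6 (21 shared). Only 3 libraries per group limit each count.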
